A study of Mus musculus with 75 samples.

Results

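This comparison set Gpr37-knockout enteric glia against wild-type enteric glia from the small intestine of mice that had received LPS (lipopolysaccharide, a bacterial endotoxin) 24 h earlier. Its members were 9 of the 75 libraries of the series, all those labelled small intestine, LPS and 24 h: 5 from knockout mice and 4 from wild-type mice. The knockout libraries came from mice 6, 10, 11, 17 and 21, and the wild-type libraries from mice 3, 8, 13 and 16. The genotypes are given as Gpr37-/- and Gpr37WT, and both groups also carried a transgene that makes glia express the green fluorescent protein eGFP. Each mouse received 1 intraperitoneal injection of LPS at 2 mg/kg, and the PBS (phosphate-buffered saline) controls used in the fit and in 2 tests below received the vehicle alone. The tissue is labelled as the myenteric plexus, the nerve and glia layer between the muscle coats. The animals are called adult, their ages are not given, and the labels do not say which part of Gpr37 was removed. The 37 libraries of the 24 h experiment, from both gut regions, both genotypes and both treatments, were fitted in 1 edgeR model, and 14903 genes passed its count filter.

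Enteric glia are the support cells of the gut nervous system. They resemble astrocytes of the brain, and in inflammation they can take on a reactive state with raised Gfap, cytokines and chemokines. The product of Gpr37 is a receptor of the G protein-coupled kind, found on myelinating and enteric glia, for which prosaposin, the product of Psap, has been proposed as a ligand. Cells sense LPS through Tlr4 and its adaptors, which lead to NF-kB activation and to interferon production, and each of these switches on its own set of target genes. The title of the series names reactive gliosis as its subject, and this comparison asks how glia without Gpr37 differ from wild-type glia after the same LPS dose.

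Gpr37 itself was measured in every library first. Among the knockout libraries, 1 count each was found in mice 6 and 11 and none in mice 10, 17 and 21. The wild-type libraries held 100 counts in mouse 8, 29 in mouse 13 and 124 in mouse 16, or 9.12, 5.36 and 13.1 CPM (counts-per-million, scaled by TMM factors). The library labelled wild type from mouse 3 held 0 counts, where 3 counts would have given 0.770 CPM, so its Gpr37 value lay with the knockouts and goes against its label. The knockout total of 2 counts against the wild-type total of 253 is a ratio of 165, with a 95% interval of 45.3 to 1370 for counting error only. In the edgeR fit the log2 difference (knockout minus wild type) was -6.48 ± 1.59 (SE), with an unadjusted p of 0.000271 and a Benjamini-Hochberg adjusted p of 0.257. Wild-type PBS libraries of the small intestine held 11.8 ± 4.75 CPM (SD, n = 6) and the knockout PBS libraries 0.0826 ± 0.0707 CPM (SD, n = 4). Several of the results below that rest on mouse 3, but not all, are also given without that library. Of the other genes of the system, Psap lay between 1268 and 2309 CPM in the knockouts and between 1109 and 1308 CPM in the wild types, with a difference of 0.32 ± 0.24 (SE), or 0.12 without knockout mouse 11, which held the highest value. The receptor's closest relative, Gpr37l1, lay between 198 and 1004 CPM against 219 and 371 CPM. Its difference was 0.44 ± 0.70 (SE), or -0.23 without knockout mouse 11, which held the 1004 CPM. Neither passed the test.

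Total counts ran from 2956187 to 15379210 per library, a depth at which 3 counts of a gene correspond to 0.180 to 1.07 CPM. Mitochondrial genes took 7.98 ± 6.20% (SD, n = 5) of the knockout and 9.23 ± 6.81% (SD, n = 4) of the wild-type counts, with a two-sided exact permutation p of 0.77 over 126 splits. That share divided the mice by number instead: mice 3, 6, 8 and 10 had 12.2 to 16.9%, and mice numbered 11 and above had 2.43 to 5.95%. Each side holds both genotypes, so values within each side are given beside the main lists below. The libraries of 1 group came from different mice and no 2 of them were alike within counting noise. The labelled sex, 4 females and 5 males, matched the sex-linked genes in 9 of 9 libraries.

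The glial label was checked against 22 enteric glia markers, all of which were detected. Sox10, a transcription factor of the glial lineage, lay at 53.6, 60.8, 466, 146 and 120 CPM in knockout mice 6, 10, 11, 17 and 21, and at 88.8, 62.3, 109 and 107 CPM in wild-type mice 3, 8, 13 and 16. The groups overlapped, and knockout mouse 11 stood far above the next highest library. The calcium-binding protein S100b lay at 448 CPM in that mouse and at 35.2 to 215 CPM elsewhere. Of the 22 markers, 14 had a higher and 8 a lower fitted value in the knockouts, with a median log2 difference of 0.32. The median of all genes tested was 0.05. The median of the markers was -0.04 without knockout mouse 11, 0.19 without wild-type mouse 3, 0.22 without wild-type mouse 13 and 0.65 without wild-type mouse 8. Within mice numbered 11 and above 6 of the 22 were lower with a median of 0.69, and within the others 12 with a median of -0.34, so the direction turned between the sides. Marker transcripts of other cell types were present too: neuron markers summed to between 1745 and 8362 CPM in the knockouts and between 2422 and 8654 CPM in the wild types. In bulk RNA, fewer cells of a type and less RNA per cell cannot be told apart.

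Across 14903 genes, edgeR's quasi-likelihood test called 2 genes at a Benjamini-Hochberg adjusted p under 0.05, or 0.0134% of those tested: Arf5 was lower and Lrrc45 was higher in the knockouts. Arf5 encodes a small GTPase of the ARF family that acts in Golgi traffic. Its levels were 83.2, 64.0, 45.1, 64.9 and 59.3 CPM in knockout mice 6, 10, 11, 17 and 21, and 233.7, 163, 122 and 208 CPM in wild-type mice 3, 8, 13 and 16. Every knockout library lay below every wild-type library, and mouse 3 had the highest value. The log2 difference was -1.52 ± 0.28 (SE), or 2.87 times more in the wild types by means, with an edgeR adjusted p of 0.0321. Lrrc45 encodes a centrosomal linker protein. It stood at 2.89, 15.7, 22.5, 4.26 and 9.61 CPM in the same order of knockout mice, and at 0, 0, 0.185 and 0.106 CPM in the wild types. The 4 wild-type libraries held 2 Lrrc45 counts in all and the 5 knockout libraries 481, a ratio of 184 with a 95% counting interval of 50.6 to 1520, and the edgeR adjusted p was 0.0222.

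The calls depended on single libraries. Without wild-type mouse 3, 8 or 16, or without knockout mouse 11, no gene was called, although Arf5 kept a log2 difference between -1.69 and -1.38 and Lrrc45 one between 6.55 and 7.67 over the 9 removals. Without wild-type mouse 13 there were 10 calls, and among mice numbered 11 and above there were 23. DESeq2 called 182 genes, 122 higher and 60 lower, with Arf5, Lrrc45 and Gpr37 among them, and 75 of the 182 had 0 counts in 1 of the groups. The limma-voom fit with the mouse as a random effect, added after the values were seen, called 16 genes: Lrrc45 was higher and 15 were lower, among them Arf5, Sphk1, Rsad2, Calhm6 and H3f3b, which are described below.

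Both called genes were followed through the other groups of the 24 h experiment, in which most colon libraries come from mice that also gave a small-intestine library, so the regions are not independent. Arf5 lay lower in the knockouts in all 4 settings, with no overlap between genotypes in any, and was called in the 2 with LPS. With PBS in the small intestine it lay at 50.2 ± 4.20 CPM (SD, n = 4) in knockouts and 123 ± 26.6 CPM (SD, n = 6) in wild types, a log2 difference of -1.29 with an unadjusted p of 4.91e-05 and an edgeR adjusted p of 0.731. In the colon with LPS the difference was -1.79, with an edgeR adjusted p of 0.00446 (64 genes, or 0.429%, were called there), and with PBS -1.23, with an adjusted p of 0.434. Lrrc45 did not follow this order. Its small-intestine PBS levels were 14.0 ± 3.38 CPM (SD, n = 4) in knockouts and 11.2 ± 5.24 CPM (SD, n = 6) in wild types, a log2 difference of 0.32. In the colon with LPS the difference was 0.91. The wild-type LPS group of the small intestine was the group near 0, and the knockout LPS libraries lay within the range of the PBS libraries or close to it. The interaction of genotype and treatment for Lrrc45 was fitted at 6.73 ± 1.41 (SE) on the log2 scale from those 2 wild-type counts, with an edgeR adjusted p of 0.274, and for Arf5 it was -0.23 ± 0.38 (SE), with an adjusted p of 1.00.

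**Figure D1:**
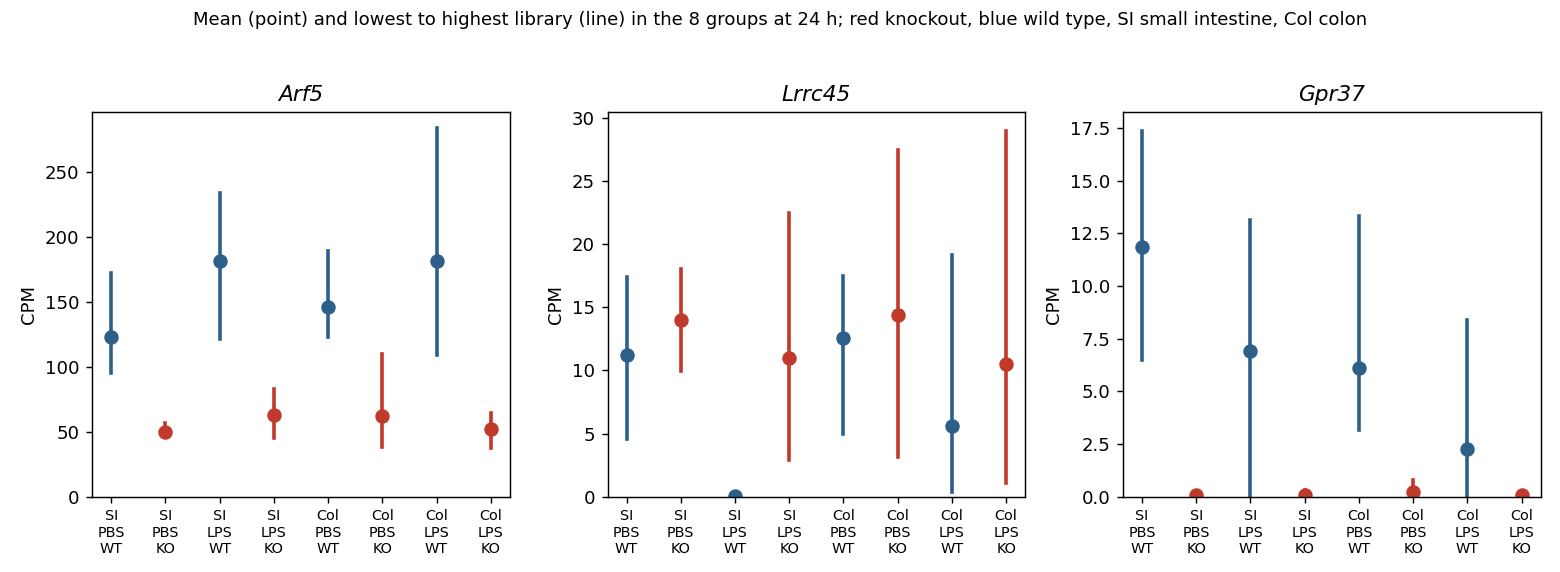
Mean (point) and lowest to highest library (line) of Arf5, Lrrc45 and Gpr37 in CPM for the 8 groups of region, treatment and genotype, with 4 to 6 libraries each. Arf5 is lower in the knockouts in each pair of groups, and Lrrc45 is near 0 only in the wild-type LPS group of the small intestine (0 to 0.185 CPM).

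Arf5 lies on the chromosome of Gpr37. In GRCm38.p6, Gpr37 occupies chromosome 6 from 25668523 to 25689980 on the minus strand and Arf5 occupies 28423604 to 28426602 on the plus strand, 2.73 Mb away, and no other annotated gene overlaps either. Lrrc45 lies on chromosome 11 from 120713888 to 120721128 on the plus strand and is overlapped by Cenpx on the minus strand. Whether the counting used strand is not given in the sources used here, so reads in the overlap could belong to either gene. Cenpx lay at 17.5 to 48.4 CPM in the knockouts and 5.65 to 29.3 CPM in the wild types. Within 5 Mb of Gpr37, a window chosen after the values were seen, 44 other genes were tested. An unadjusted p under 0.05 was reached by 6 of them, 2 lower (Arf5 and Cpa4) and 4 higher, among them Opn1sw, Smo and Cpa1, where 3.06% of all genes tested were lower and 4.57% higher at that p. Cpa1 encodes a pancreatic carboxypeptidase and stood at 310 CPM in knockout mouse 10 and 3741 CPM in knockout mouse 17, and at 0 to 4.65 CPM in the other 7 libraries. Of these 6, Arf5 alone showed no overlap between the groups. The strain in which the deletion was made is not given in the sources used here.

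Before adjustment, 681 genes had a p under 0.05 and a higher value in the knockouts (4.57%), and 456 had a lower one (3.06%). The groups did not overlap in CPM for 183 higher genes (1.23%) and 238 lower genes (1.6%). The fitted difference was below 0 for 46.6% of all genes. These shares are the background for each list below. The lists share members and are not independent: of the genes tested, 14 of 19 in the NF-kB list, 6 of 38 in the interferon list, 6 of 37 in the reactive astrocyte list and 8 of 23 chemokines are also in the list of 140 genes raised by LPS at 2 h, which is described first. These make up 10%, 4.29%, 4.29% and 5.71% of those 140. A list member is described as higher or lower by its fitted value, and Arf5 and Lrrc45 remain the calls.

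**Figure D2:**
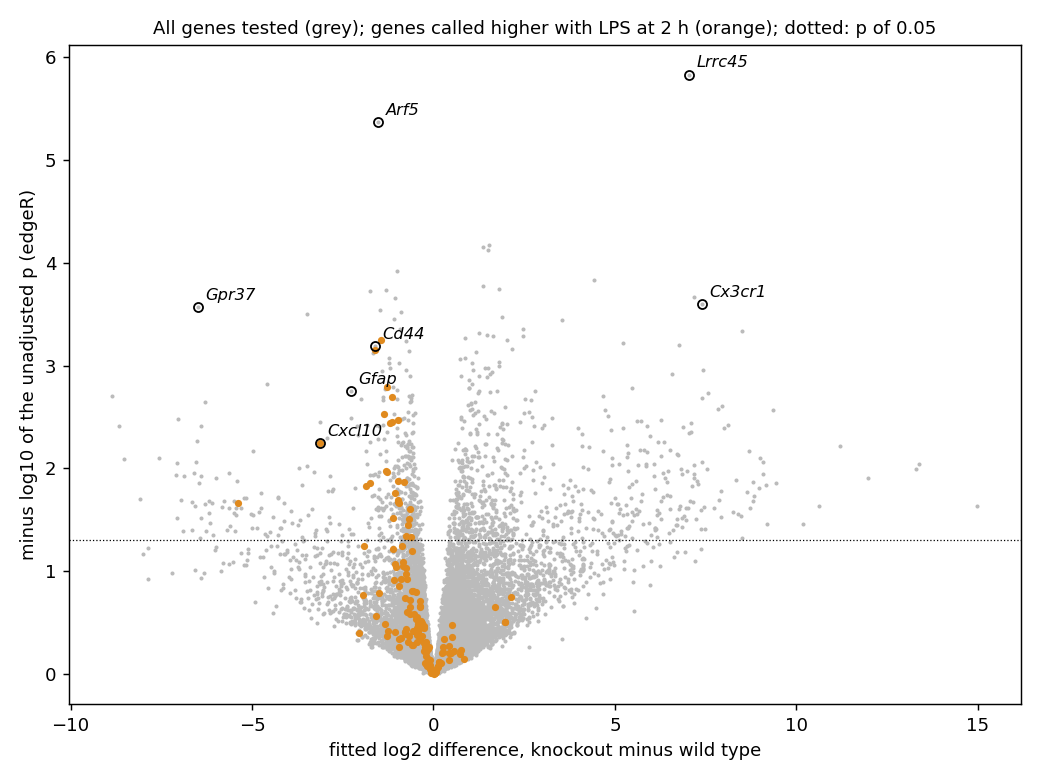
Each of the 14903 genes by its fitted log2 difference (knockout minus wild type) and minus log10 of the unadjusted edgeR p, with the 140 early LPS-induced genes (2 h, other mice) in orange. Lrrc45 and Arf5 stand highest, and the orange points lie mostly left of 0, 109 of 140 with a difference below 0.

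The broadest pattern concerned genes that LPS switches on. In the 2 h experiment of the series, done in other mice without the knockout, 144 of 13107 genes (1.1%) were called with LPS in the small intestine, 141 of them higher, and 140 of these had a log2 difference above 1. All 140 were tested at 24 h. In the knockouts 109 of the 140 (77.9%) had the lower value, against 46.6% of all genes, with a median log2 difference of -0.47. An unadjusted p under 0.05 was reached by 26 of them, all lower, and the groups did not overlap for 21, all lower. Akap2 and Pakap, at nearly equal levels (138.5 and 138.3 CPM in the knockouts by means), count as 2 of the 26 and may share reads. edgeR called no member, and DESeq2 called Pde4b and Sphk1. Without wild-type mouse 8 the 26 became 17. With PBS 51 of the 140 had the lower value in the knockouts, against 49.5% of all genes, and the median was 0.15. The count of lower members was 105 within mice numbered 11 and above, 115 of 139 within the lower-numbered mice, and 117 without mouse 3. Leaving out 1 library at a time, it ran from 94 (wild-type mouse 13 out) to 121 (knockout mouse 11 out).

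By unadjusted p, the first 4 of these genes were Pde4b, Sphk1, Irgm1 and Sod2. Pde4b, a phosphodiesterase that breaks down cAMP, lay at 174, 162, 173, 111 and 115 CPM in knockout mice 6, 10, 11, 17 and 21, and at 487, 501, 330 and 280.3 CPM in wild-type mice 3, 8, 13 and 16. The groups did not overlap, and the log2 difference was -1.44 ± 0.38 (SE), with an edgeR adjusted p of 0.268. Sod2, the mitochondrial superoxide dismutase, lay at 651, 804, 331, 838 and 424 CPM against 1522, 1464, 1330 and 1065 CPM. Its difference was -1.14 ± 0.34 (SE), and again no knockout library reached the lowest wild-type library. With PBS Sod2 stood at 103 ± 7.85 CPM (SD, n = 4) in knockouts and 106 ± 9.12 CPM (SD, n = 6) in wild types. Every LPS library lay above every PBS library.

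Genes of the reactive astrocyte state were next, taken as 13 pan-reactive, 12 A1 and 12 A2 genes, the last 2 classes named for induction by LPS and by ischaemia in the brain. Of the 37 genes 30 had the lower value in the knockouts (81.1%), 8 with an unadjusted p under 0.05, and none of the 7 higher members reached it. The 8 became 4 without wild-type mouse 8 and 5 without wild-type mouse 16 or knockout mouse 11. The groups did not overlap for 3, all lower, and the median difference was -0.46. The summed level of the 37 genes was 18440 to 26920 CPM in the knockouts and 29780 to 37370 CPM in the wild types, so the sums did not overlap. Within mice numbered 11 and above 31 of 37 were lower, within the others 26, and without mouse 3 28. By class, 12 of 13 pan-reactive, 8 of 12 A1 and 10 of 12 A2 genes were lower. With PBS 12 of the 37 were lower and the median was 0.22. An unadjusted edgeR p under 0.05 was reached there by 3 higher members and 1 lower member, against 103 and 153 of all genes. Of the 3, Lcn2 and Timp1 had PBS differences of 1.83 ± 0.87 and 1.04 ± 0.50 (SE).

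Cd44, the receptor for the matrix sugar hyaluronan and a marker of reactive astrocytes, separated the groups widely. It lay at 226, 174, 205, 263 and 166 CPM in knockout mice 6, 10, 11, 17 and 21, and at 584, 625, 682 and 640.1 CPM in wild-type mice 3, 8, 13 and 16. The log2 difference was -1.61 ± 0.43 (SE), with an edgeR adjusted p of 0.276. PBS libraries stood at 94.5 ± 14.8 CPM (SD, n = 4) in knockouts and 83.9 ± 21.4 CPM (SD, n = 6) in wild types. Sphk1, the kinase that makes sphingosine 1-phosphate and an A2 gene, lay at 71.9, 50.8, 15.1, 99.9 and 61.5 CPM against 126, 152, 255 and 193 CPM. Its groups did not overlap either, with a difference of -1.60 ± 0.43 (SE).

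Gfap, the intermediate filament that defines reactive astrocytes, lay at 459.8, 409, 143, 179 and 145 CPM in the knockouts and at 719, 3134, 384 and 915 CPM in the wild types. Wild-type mouse 13 lay within the knockout range and mouse 8 far above all others. The log2 difference was -2.27 ± 0.67 (SE), with an edgeR adjusted p of 0.349, and it was -1.33 without mouse 8. Cd44, Sphk1 and Gfap passed the threshold with DESeq2, for Cd44 and Gfap the 1 passing setting of 26. Sphk1 also passed in a limma-voom fit with the mouse as a random effect, added after the values were seen (adjusted p of 0.0423). The pentraxin Ptx3, an A2 gene, and the chemokine Cxcl10, a pan-reactive gene described with the chemokines below, had larger differences with overlapping groups. The Ptx3 difference was -2.89 ± 1.27 (SE), with an edgeR adjusted p of 0.571. Lcn2, Serpina3n and Timp1 differed less. Lcn2, the iron-scavenging lipocalin, ran from 425 to 7866 CPM against 2245 to 8441 CPM. Serpina3n, an acute-phase protease inhibitor, ran from 512 to 1398 CPM against 827 to 1751 CPM. Timp1, an inhibitor of matrix proteases, ran from 94.5 to 479 CPM against 260 to 489 CPM. Their log2 differences were -0.79 ± 0.90, -0.33 ± 0.52 and -0.30 ± 0.52 (SE), and knockout mouse 11 was the lowest library for all 3. With 1 library left out they ran from -1.27 (knockout mouse 17 out) to -0.50 (knockout mouse 11 out) for Lcn2, from -0.51 (knockout mouse 17 out) to -0.13 (wild-type mouse 13 out) for Serpina3n and from -0.51 (knockout mouse 6 out) to -0.07 (knockout mouse 11 out) for Timp1. The complement factor C3, an A1 gene, ran the other way, from 2375 to 4332 CPM against 589 to 2837 CPM, with a difference of 0.77 ± 0.72 (SE), or 0.46 without wild-type mouse 8.

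**Figure D3:**
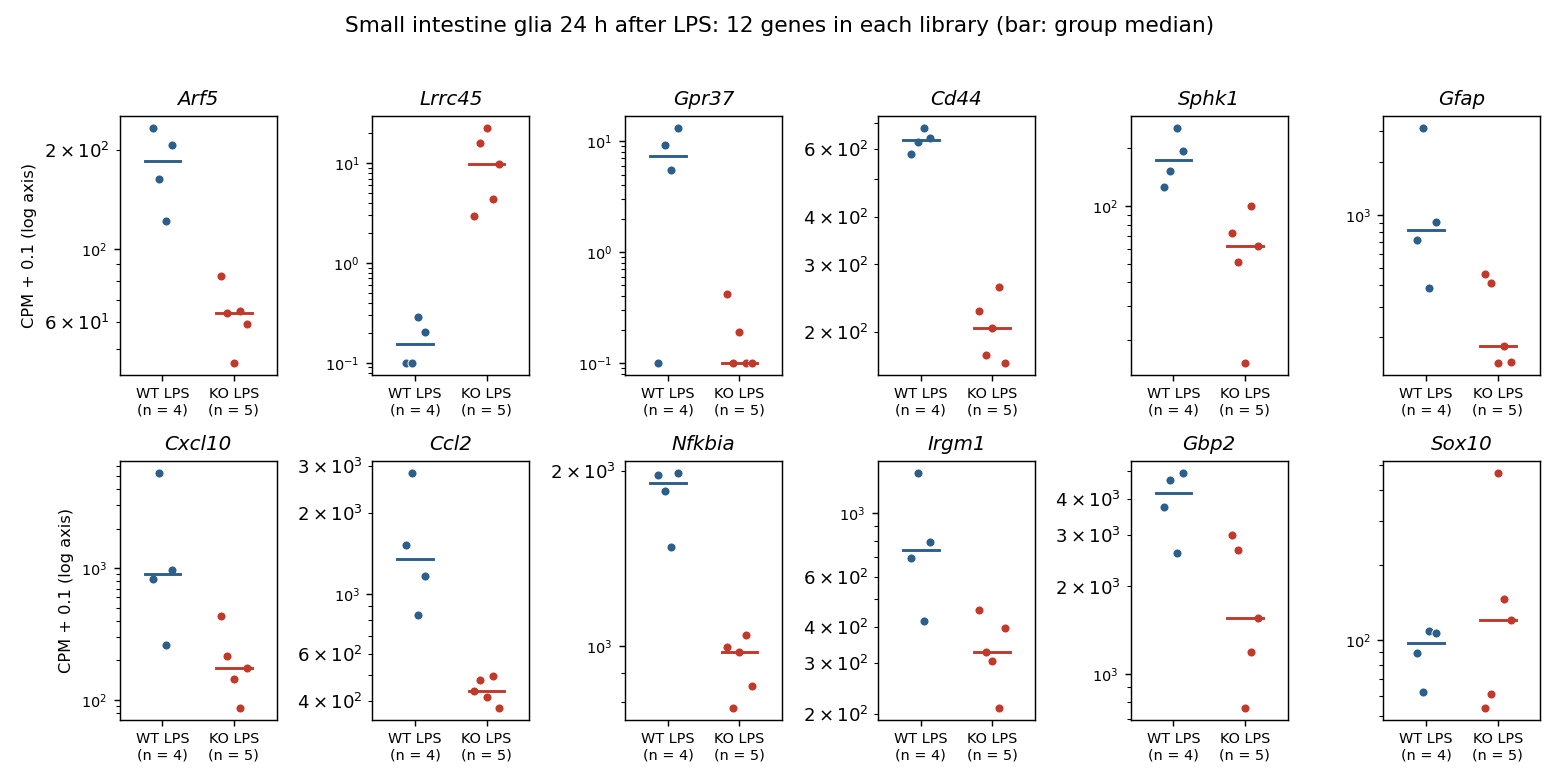
CPM plus 0.1 (log axis) of 12 genes in each of the 4 wild-type (blue) and 5 knockout (red) LPS libraries, with the group median as a bar. Cd44 and Nfkbia show a gap between the groups, the highest knockouts at 263 and 1044 CPM and the lowest wild types at 584 and 1482 CPM, while the groups overlap for Sox10.

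Targets of NF-kB, the transcription factor downstream of Tlr4, and its feedback inhibitors followed. Of 19 genes 17 had the lower value in the knockouts (89.5%), 7 with an unadjusted p under 0.05, and the 2 higher members did not reach it. The groups did not overlap for 7, all lower, and the median was -0.71. With PBS 4 were lower and the median was 0.16. Within mice numbered 11 and above 15 of 19 were lower, within the others 18, and without mouse 3 18. Nfkbia, the inhibitor that holds NF-kB in the cytoplasm and is itself induced by it, lay at 995, 782, 979, 1044 and 855 CPM in knockout mice 6, 10, 11, 17 and 21, and at 1964, 1849, 1482 and 1983 CPM in wild-type mice 3, 8, 13 and 16. The groups did not overlap, with a log2 difference of -0.97 ± 0.37 (SE) and an edgeR adjusted p of 0.489. Icam1, the adhesion molecule for leukocytes, ran from 136 to 522 CPM against 628 to 1136 CPM, a difference of -1.31 ± 0.48 (SE). Rela, the p65 subunit itself, ran from 65.2 to 203 CPM against 249 to 374 CPM, a difference of -0.82 ± 0.32 (SE).

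The sensing arm upstream showed no common direction: of 16 genes of LPS sensing and signalling 8 were lower and 8 higher, with a median of 0.01. An unadjusted p under 0.05 was reached by 2 lower members and 1 higher member. The higher one was Ticam2, an adaptor of Tlr4, at 0 to 5.32 CPM in the knockouts and 0 in every wild type, so the groups overlapped at 0. The lowest p in that list belonged to Traf6, the ubiquitin ligase that links the receptor complex to NF-kB. Traf6 ran from 10.0 to 26.7 CPM in the knockouts and from 18.5 to 127 CPM in the wild types, a difference of -1.99 ± 0.59 (SE) with an edgeR adjusted p of 0.352, although DESeq2 called it. The highest value was that of wild-type mouse 3, and without that library the difference was -1.31. Irak3, a brake on the same pathway, had a difference of -1.20 ± 0.46 (SE).

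Interferon-stimulated genes were counted as 38 members. Of these 32 had the lower value in the knockouts (84.2%) and the median was -0.49. An unadjusted p under 0.05 was reached by 9 lower and 2 higher members, and the groups did not overlap for 3, all lower. Without wild-type mouse 13 the 9 became 15. With PBS 10 were lower and the median was 0.17. Within mice numbered 11 and above 29 of 38 were lower with a median of -0.21, within the others 34 with a median of -0.72, and without mouse 3 34. The count was 26 without knockout mouse 10 and 27 without wild-type mouse 16. Irgm1, an immunity-related GTPase, lay at 460.4, 329, 305, 209 and 399 CPM in the knockouts and 698, 1377, 421 and 791 CPM in the wild types. Wild-type mouse 13 fell below the highest knockout, and the difference was -1.27 ± 0.37 (SE), with an edgeR adjusted p of 0.349. Ifit2, which binds foreign RNA, ran from 47.6 to 145 CPM against 127 to 408 CPM, and Rsad2, which makes an antiviral nucleotide, from 86.8 to 451 CPM against 301 to 1324 CPM. Their differences were -1.39 ± 0.42 and -1.83 ± 0.59 (SE). Gbp2, a guanylate-binding protein, ran from 762 to 3011 CPM against 2602 to 4922 CPM, a difference of -1.12 ± 0.48 (SE). Mouse 13 was the lowest wild-type library for all 4 of these genes.

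Upstream sequence of 3 of these genes, of the chemokine Cxcl10 (not a member of that list) and of Nfkbia is shown. It holds letters that match response elements of the interferon and NF-kB pathways. RefSeq's table of promoters for GRCm38.p6 holds 250 bases before each start, and 28 of the 38 interferon-stimulated genes and 14 of the 19 NF-kB genes matched it by symbol. Capitals mark, in Cxcl10, Irgm1, Gbp2 and Rsad2, the letters GAAA and GAAA with 2 free bases between them, a form of the interferon-stimulated response element. In Nfkbia they mark GGG and TTTCC with 2 free bases between them, a form of the NF-kB site. Both strands were searched, so a match can also appear as its reverse complement. In Irgm1 2 overlapping matches merge into 1 capital run. Each stretch ends at the base before the start and is read 5′ to 3′ along the gene's strand: Cxcl10 chr5:92348890-92349139 (minus), Irgm1 chr11:48871421-48871520 (minus), Gbp2 chr3:142620563-142620662 (plus), Rsad2 chr12:26456453-26456602 (minus) and Nfkbia chr12:55492648-55492747 (minus).
Cxcl10: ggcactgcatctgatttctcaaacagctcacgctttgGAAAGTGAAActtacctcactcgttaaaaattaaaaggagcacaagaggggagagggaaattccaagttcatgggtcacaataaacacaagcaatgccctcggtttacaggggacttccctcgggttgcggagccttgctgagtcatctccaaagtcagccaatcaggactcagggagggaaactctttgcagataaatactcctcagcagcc
Irgm1: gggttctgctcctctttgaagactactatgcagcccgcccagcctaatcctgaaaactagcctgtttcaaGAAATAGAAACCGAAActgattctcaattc
Gbp2: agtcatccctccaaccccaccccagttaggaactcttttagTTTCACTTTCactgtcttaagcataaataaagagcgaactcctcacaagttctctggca
Rsad2: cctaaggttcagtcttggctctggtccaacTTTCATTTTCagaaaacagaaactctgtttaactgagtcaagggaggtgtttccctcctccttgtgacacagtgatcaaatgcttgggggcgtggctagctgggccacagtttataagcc
Nfkbia: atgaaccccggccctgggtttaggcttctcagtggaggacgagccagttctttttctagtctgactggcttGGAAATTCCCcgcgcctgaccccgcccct

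In Cxcl10 the match begins 213 bases before the start, in Rsad2 120, in Gbp2 59, in Irgm1 30 and in Nfkbia the NF-kB form begins 29 bases before it. The interferon form was found in 15 of the 28 matched interferon-stimulated genes (53.6%) and in 0 of the 14 matched NF-kB genes, and in 3.46% of 27025 genes with a promoter in the table. The NF-kB form was found in 3 of the 14 NF-kB genes (21.4%), in 1 of the 28 interferon-stimulated genes and in 1.65% of all. The letters TTC and GAA with 3 free bases between them, a form of the gamma-activated site, stood in 9 of 28, 4 of 14 and 8.13% of all. A match is a run of letters and was not tested as a binding site.

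Antigen presentation by MHC class I, which interferons also raise, had 15 of 17 genes lower (88.2%), 4 with an unadjusted p under 0.05, and a median of -0.42. The 4 became 2 without wild-type mouse 3, 8 or 16 or without knockout mouse 11 or 17, and 6 without wild-type mouse 13. With PBS 3 were lower and the median was 0.21. Within mice numbered 11 and above all 17 were lower, within the others 13, and without mouse 3 16. Tap1, a subunit of the peptide transporter, lay at 421, 456, 178, 165 and 263 CPM in the knockouts and 877, 1119, 445 and 576 CPM in the wild types. Wild-type mouse 13 lay just below knockout mouse 10, and the difference was -1.35 ± 0.39 (SE). Tapbp, which loads peptide onto class I molecules, ran from 742 to 1317 CPM against 1381 to 1626 CPM with no overlap, a difference of -0.57 ± 0.25 (SE). H2-Q4, a class Ib heavy chain with near-identical relatives among which reads could be split, ran from 7.80 to 13.0 CPM against 16.1 to 39.7 CPM. Class II genes had 8 of 10 lower with LPS, and all 10 were also lower with PBS.

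Chemokines were mixed. Of 23 genes 15 were lower and 8 higher, the median was -0.75, and 2 lower members had an unadjusted p under 0.05. The median was -0.25 without wild-type mouse 13, -0.49 without wild-type mouse 8 or knockout mouse 11, -0.50 without knockout mouse 21, -0.30 within mice numbered 11 and above and -1.04 within the others. Without mouse 8 no member had an unadjusted p under 0.05. Ccl2, which draws monocytes, lay at 436, 478, 412, 493 and 376 CPM in knockout mice 6, 10, 11, 17 and 21, and at 1520, 2826, 835 and 1171 CPM in wild-type mice 3, 8, 13 and 16. The knockouts lay close together below all wild types, with a difference of -1.85 ± 0.72 (SE) and an edgeR adjusted p of 0.501. With PBS Ccl2 stood at 25.8 ± 24.7 CPM (SD, n = 4) in knockouts and 24.9 ± 22.4 CPM (SD, n = 6) in wild types. Cxcl10, an interferon-induced attractant of T cells, lay at 434, 216, 145, 86.7 and 176 CPM against 825, 5281, 261 and 971 CPM. Mouse 8 supplied most of the wild-type sum, and the difference of -3.12 ± 1.05 (SE) became -1.70 without it. The neutrophil attractant Cxcl1 ran from 103 to 328 CPM against 482 to 1077 CPM with no overlap, a difference of -1.91 ± 0.96 (SE). Il6, a cytokine of the same response, ran from 2.25 to 25.6 CPM against 4.62 to 74.4 CPM.

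**Figure D4:**
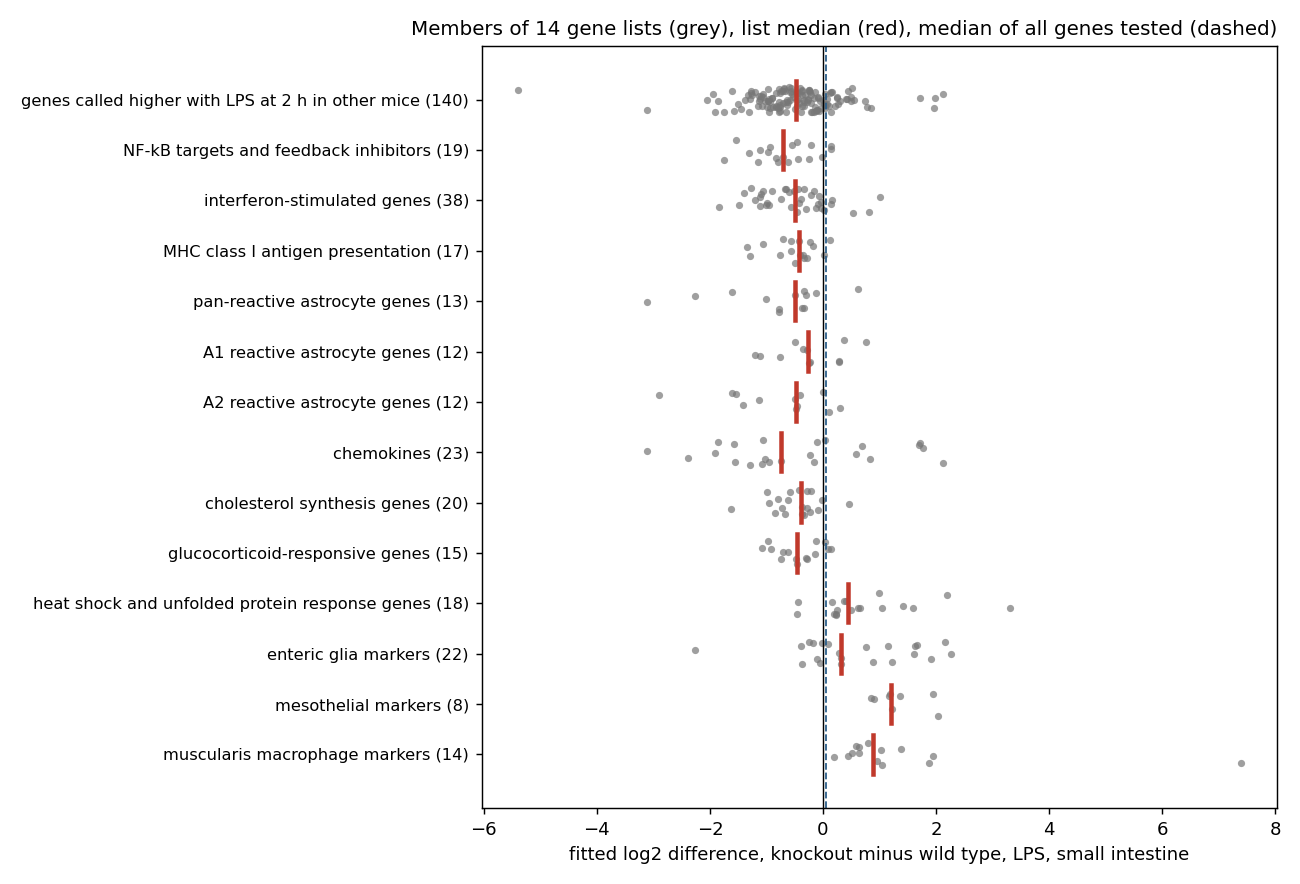
Fitted log2 difference (knockout minus wild type) of every tested member of 14 lists, in grey, with the list median in red and the median of all genes, 0.05, dashed. The medians of the LPS-induced, NF-kB, interferon, MHC class I and reactive astrocyte lists lie left of 0, from -0.71 to -0.26, and those of the heat shock, glial, mesothelial and macrophage lists lie right of it.

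Among metabolic and stress genes, 19 of 20 cholesterol synthesis genes had the lower value (95%), with a median of -0.40, but 1 had an unadjusted p under 0.05 and 14 were also lower with PBS. That 1 gene was Fdft1, which makes squalene, at 50.4 to 107 CPM against 98.6 to 256 CPM and a difference of -0.99 ± 0.39 (SE). The highest value was that of wild-type mouse 3, and without that library 18 of the 20 were lower and none reached a p under 0.05, nor did any without knockout mouse 21. The 1 gene became 2 without wild-type mouse 13 or 16 or knockout mouse 6, 10, 11 or 17. Within mice numbered 11 and above 17 of the 20 were lower, within the others 15, and without wild-type mouse 8 also 15. Heat shock and unfolded protein response genes went the other way: 16 of 18 were higher, 5 with an unadjusted p under 0.05, and the median was 0.45. Without knockout mouse 11 the 5 became 2 and the median 0.25, and without knockout mouse 10 the 5 became 9. Sdf2l1, a chaperone cofactor of the endoplasmic reticulum, ran from 29.0 to 97.0 CPM against 14.8 to 30.3 CPM, a difference of 1.42 ± 0.40 (SE), called by DESeq2 and not by edgeR. Within mice numbered 10 and below that list had 10 of 18 genes lower and a median of -0.08, so its direction held on 1 side of the division only. With knockout mice 11 and 17 left out, 7 of the 18 were lower and the median was 0.17. Of 15 glucocorticoid-responsive genes 12 were lower, 2 with an unadjusted p under 0.05, and with PBS 4 were lower. This list also shares Nfkbia, Cdkn1a, Mt1, Mt2 and Dusp1 with the 140 genes raised by LPS at 2 h.

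Beyond the lists, the genes with the smallest p among those with at least 5 CPM and no overlap had varied roles. edgeR called none but Lrrc45 and Arf5, whereas DESeq2 called every gene named in this and the next paragraph. On the higher side were Hdac5, a class IIa histone deacetylase (45.3 ± 12.7 against 15.7 ± 5.09 CPM, SD), Dguok, the mitochondrial deoxyguanosine kinase (34.9 ± 9.04 against 13.7 ± 3.50 CPM), and Pck2, the mitochondrial form of phosphoenolpyruvate carboxykinase (72.7 ± 24.3 against 25.7 ± 11.6 CPM), with n = 5 and n = 4. Their log2 differences lay between 1.35 and 1.53, each with an edgeR adjusted p of 0.227. Others with mitochondrial or lysosomal roles were Tmem126b, a complex I assembly factor, Hscb, an iron-sulfur cochaperone, and Arsb, the lysosomal arylsulfatase B, with differences of 1.24, 2.02 and 1.88. The remaining ones were Tmem205, Ccdc28b, Fyco1 and Pds5a, with differences of 1.37 to 2.48.

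On the lower side were Elp5, a subunit of the elongator complex that modifies transfer RNA (52.8 ± 8.31 against 106 ± 38.4 CPM, SD, n = 5 and n = 4), and Thumpd1, a cofactor of transfer RNA acetylation (34.9 ± 8.88 against 73.3 ± 17.8 CPM). Bloc1s4, Zfp668, Ppp2r2d, H3f3b and Sh3glb1 had differences between -1.47 and -0.67. Wild-type mouse 3 had the highest value for Elp5 (158.3 CPM) and for Bloc1s4 (77.22 CPM). With 1 library left out, the difference ran from -1.18 to -0.744 for Elp5 and from -1.558 to -0.875 for Bloc1s4. The Bloc1s4 groups were barely apart, with the highest knockout at 21.68 CPM and the lowest wild type at 21.83 CPM. Calhm6, a channel protein induced by interferon in immune cells, lay at 3.53, 10.4, 6.24, 2.78 and 4.74 CPM in the knockouts and 69.3, 112, 15.0 and 53.3 CPM in the wild types, without overlap. Its difference was -3.50 ± 0.87 (SE), with an edgeR adjusted p of 0.257. With PBS it was at 0.933 ± 0.681 CPM (SD, n = 4) in knockouts and 0.0773 ± 0.150 CPM (SD, n = 6) in wild types, the opposite order. Its interaction of genotype and treatment, -7.22 ± 1.34 (SE), had the smallest adjusted p of that test, 0.0855, and it rests on 3 Calhm6 counts in the wild-type PBS group.

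Whether the difference under LPS departed from that under PBS was tested as that interaction. edgeR called 0 genes, with 578 at an unadjusted p under 0.05 (3.88%), and DESeq2 called 59. For Cd44 the interaction was -1.79 ± 0.59 (SE), for Nfkbia -1.15 ± 0.51 and for Irgm1 -1.74 ± 0.51, each with an adjusted p of 1.00. Between knockout and wild type with PBS alone, edgeR called 0 genes, with 256 at an unadjusted p under 0.05 (1.72%), DESeq2 called 58 and limma-voom 2. Whether the difference under LPS departed from that in the colon was tested the same way, although the regions share mice: 4 wild-type and 3 knockout mice with LPS gave a library of each. edgeR called 0 genes there too, with 1107 at an unadjusted p under 0.05 (7.43%), and DESeq2 called 89. With the mouse as a random effect (limma-voom, within-mouse correlation 0.139) 0 genes were called and 1089 had an unadjusted p under 0.05. The region difference was -0.11 ± 0.60 (SE) for Cd44 and 0.25 ± 0.52 for Nfkbia, and these tests share the small-intestine libraries with the main one.

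Markers of other cells differed in fitted value between the genotypes in some lists, although 0 of 8 mesothelial, 1 of 14 macrophage, 0 of 10 lymphocyte and 0 of 14 neuron markers reached an unadjusted p under 0.05. The 8 mesothelial markers, genes of the serosal covering of the gut, all had higher values in the knockouts, with a median of 1.20, and their summed level was 555 to 1467 CPM against 283 to 519 CPM, without overlap. With PBS 7 of them were higher, with a median of 0.28. Macrophage markers were higher for 14 of 14, with a median of 0.88 and sums of 442 to 6574 CPM against 441 to 1917 CPM. The highest sum was that of knockout mouse 11, and the other knockouts lay between 442 and 2227 CPM. With PBS all 14 macrophage markers were lower, with a median of -0.87. Lymphocyte markers were higher for 9 of 10 with LPS, with sums of 7.97 to 214 CPM against 1.54 to 205 CPM, and lower for all 10 with PBS. Neuron markers were lower for 11 of 14 with LPS, with a median of -0.31, and for all 14 with PBS, with a median of -1.16. Cx3cr1, the fractalkine receptor of resident macrophages, lay at 0.321, 6.44, 96.8, 7.41 and 3.72 CPM in knockout mice 6, 10, 11, 17 and 21, and at 0, 0.182, 0 and 0.212 CPM in the wild types. Its difference was 7.40 ± 1.80 (SE), with an edgeR adjusted p of 0.257, and 5.05 without knockout mouse 11. It rests on 4 wild-type counts, and DESeq2 called it. With PBS it stood at 18.1 ± 14.2 CPM (SD, n = 4) and 28.9 ± 28.0 CPM (SD, n = 6), the higher mean in the wild types. Neutrophil markers summed to 65.9 to 5785 CPM in the knockouts and 164 to 1254 CPM in the wild types.

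Knockout mice 17 and 10 also held pancreatic and epithelial transcripts. Exocrine pancreas genes, a list added after the values were seen, summed to 132400 CPM in mouse 17 and 16280 CPM in mouse 10, and to 9.67 to 358 CPM in the other 7 libraries. Of the 13 tested, 12 were higher in the knockouts with an unadjusted edgeR p under 0.05, against 681 of all genes. Their median log2 difference was 7.74. With PBS all 13 were higher at that p, against 103 of all genes, with a median of 11.9. With LPS, epithelial markers summed to 27880 and 2586 CPM in mice 17 and 10 and to 86.2 to 606 CPM in the other libraries. Reg3b, an antimicrobial lectin of gut epithelium and pancreas, made up 26970 CPM of the sum in mouse 17. The part of these pancreatic and epithelial transcripts in the lists above was not tested. With knockout mice 11 and 17 left out, a setting added after the values were seen, 127 of the 140 LPS-induced genes, 30 of 37 reactive astrocyte genes, 18 of 19 NF-kB genes and 30 of 38 interferon-stimulated genes had the lower value, and of the glia markers 14 of 22, with a median of -0.23. With knockout mice 10 and 17 left out instead, also added later, the counts were 112, 31, 16 and 27, and 7 of the 22 glia markers were lower, with a median of 0.53.

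**Figure D5:**
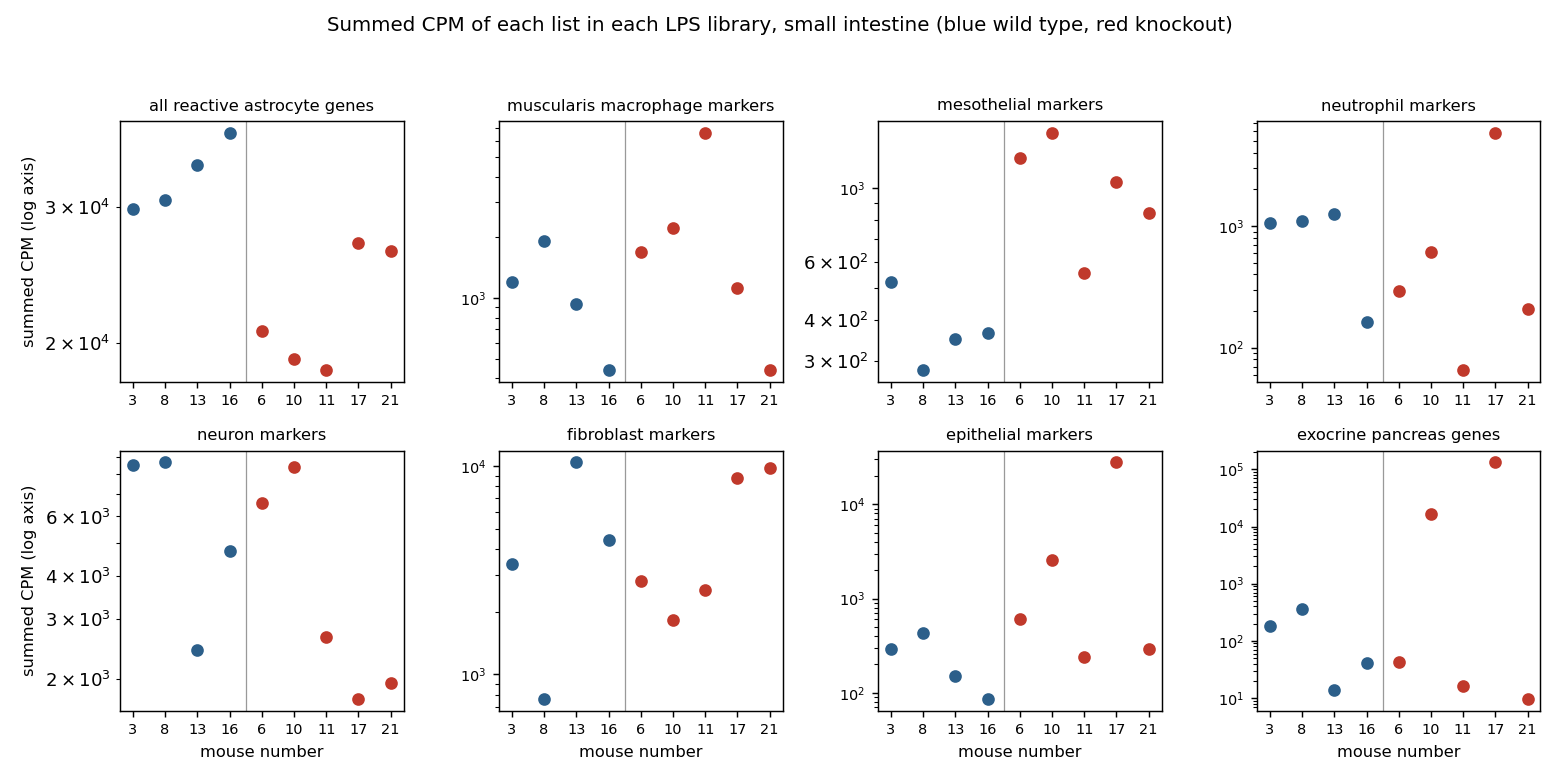
Summed CPM (log axis) of 8 lists in each library, wild types left in blue and knockouts right in red, by mouse number. The reactive astrocyte sums and the mesothelial sums do not overlap between genotypes, in opposite order, while the macrophage sum is highest in knockout mouse 11 (6574 CPM) and the pancreas sum in knockout mouse 17 (132400 CPM).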

How the data were processed

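Libraries were made by Smart-seq2 from column-purified RNA, per the labels' protocols, a PCR-based method without molecular identifiers. The submitters' processing notes name Trim Galore 0.4.4, STAR 2.5.3, DESeq2 and the GRCm38 build. The authors deposited whole-number read counts per gene symbol, without normalization. The 24 h table holds 21076 symbols, of which 25 read as dates and could not be assigned to genes.

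Genes were filtered with filterByExpr over the 8 groups of the 24 h experiment, scaled by TMM and tested two-sided in 1 edgeR 4.0.16 quasi-likelihood fit (R 4.3.3) of 37 libraries. A gene was called at a Benjamini-Hochberg adjusted p under 0.05 over 14903 genes. Standard errors were derived from each log2 difference and its F value. The fit was tested on simulated data. DESeq2 1.42.0 was an alternative, beside other scalings, filters and covariates. Genes are named by rule: 12 per direction with at least 5 CPM, the called ones first and then those with the smallest p and no overlap, up to 4 members per list with the smallest p, and a panel of glial and inflammatory genes. A few genes that this rule names are not reported here. The comparison and the lists were chosen with earlier results of these data known. Positions and promoters come from RefSeq for GRCm38.p6. Each of the 9 libraries compared is a separate mouse, while 15 of the 22 mice of the 24 h experiment gave a library of each region. A limma 3.58.1 fit with the mouse as a random effect was added for that reason. The intervals given cover counting error only.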

Additional observations from a re-analysis of the deposited data

Results flagged for a closer look

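In 10 of 152 tests of a gene or a library measure within 1 group, 1 library stood far from the others by the ratio of its gap to the range of the group, on the log2 CPM scale (prior count 2). Chance alone sets apart about 1 in 20 groups, and no explanation was tested. Knockout mouse 11 was the highest of its group for Psap (ratio 0.817), S100b (0.787), Hspa1b (0.779) and Cnp (0.969), and the lowest for Ptx3 (0.762). Psap encodes prosaposin and stood at 2309 CPM in that mouse, Cnp encodes a myelin enzyme and stood at 1311 CPM, and the pentraxin Ptx3 stood at 1.38 CPM. Knockout mouse 6 was the lowest for Rela (0.817), at 65.2 CPM, and knockout mouse 10 the highest for Pmvk (0.723), a cholesterol synthesis enzyme, at 93.4 CPM. Among the wild types, mouse 3 was the lowest for Arsb (0.839), mouse 8 for Lcn2 (0.867), at 2245 CPM, and mouse 13 for Psmb8 (0.89), an immunoproteasome subunit, at 449.7 CPM.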

How the results depend on the processing

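The 2 calls between knockout and wild type with LPS became 1 with RLE size factors, 1 with at least 10 counts in 4 of the 9 libraries, 1 without mitochondrial genes, 0 in a fit of the compared groups alone, 0 in mice numbered 10 and below, 23 in mice numbered 11 and above and 182 with DESeq2. They ran from 0 to 10 with 1 library left out, and were 0 without knockout mice 11 and 17, and 0 without wild-type mouse 3 and knockout mouse 11, both chosen after seeing the data. Without knockout mice 10 and 17, chosen likewise, they were 1. With limma-voom and the mouse as a random effect, also added later, they became 16, and the 0 calls with PBS became 2. They were 0 with the titles' replicate number as a replicate block. Deviations of same-numbered libraries correlated at -0.178 to -0.065 and the mice differ, so the numbers were not read as pairs, and no library correlated best with its own number. The 0 calls of the genotype by treatment interaction became 59 with DESeq2, 3 in its groups alone, 1 with sex as a covariate and 0 to 2 with 1 library left out. For the region interaction they became 89 with DESeq2, 1 in mice numbered 11 and above and 0 to 2 with 1 library left out, and with PBS 58 with DESeq2. The 144 calls at 2 h became 261 with DESeq2. The mitochondrial share difference of -1.25 percentage points was 0.162 in mice numbered 11 and above and ran from -3.48 to 1.32 with 1 library left out. Of 1914 values for 74 named genes over 26 settings, 1824 kept direction and side of the threshold, 39 passed it anew, 25 lost it and 26 changed direction. Lrrc45 was called in 17 of 26 settings and Arf5 in 10. The direction changed for 10 genes, none of them called. In mice numbered 10 and below the log2 differences were -0.21 for Gpr37l1, 0.061 for Timp1, 0.28 for Il6, -0.40 for Sox10, -1.63 for S100b and -0.24 for Mbp. Without knockout mice 11 and 17 they were -0.27 for Gpr37l1, -0.23 for Sox10, -1.11 for S100b and -0.25 for Mbp. Without wild-type mouse 3 and knockout mouse 11 they were -0.24 for Gpr37l1, 0.066 for Timp1, -0.95 for S100b and -0.15 for Mbp. Without knockout mice 10 and 17 they were -2.823 for Prss2, -3.291 for Cpa1, -4.929 for Try4 and -2.525 for Reg3b. With the replicate block S100b was at -0.088, and with limma-voom at -0.086, Try4 at -0.678 and Reg3b at -1.373. With 1 library left out Gpr37l1 ran from -0.23 to 0.61, Il6 from -2.01 to 0.043 and S100b from -0.98 to 0.39. The cause of these changes was not tested.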

Other observations

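Several groups of genes not described above had members in both directions with LPS. Of 12 tested myelin and lipid genes of glia 8 were higher in the knockouts, with a median log2 difference of 1.01, and the median was -0.06 without knockout mouse 11, 1.67 within mice numbered 11 and above and -0.41 within the others. Mbp, a structural protein of myelin, stood at 548 CPM in that mouse and at 32.4 to 104 CPM in the other 8 libraries. Fabp7, a fatty-acid carrier of immature glia, stood at 162 CPM there and at 7.20 to 26.1 CPM elsewhere. Of 26 acute-phase and complement genes 11 were lower, of 30 collagens and matrix proteins 12, of 27 cytokines and growth factors 14 and of 23 immediate early genes 11. Of 38 nuclear oxidative phosphorylation genes 25 were lower with LPS and 31 with PBS. All 8 tested mitochondrially encoded genes were lower with LPS, with a median of -0.31, and with PBS, with a median of -0.67. Of 21 cell proliferation genes 13 were higher with LPS and 15 lower with PBS. No member of these lists was called by edgeR, and no set was tested.

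Serpina3f, of the Serpina3 cluster whose near-identical genes can share reads, had the smallest p of the acute-phase list. It lay at 85.1, 76.6, 6.42, 40.2 and 14.9 CPM in knockout mice 6, 10, 11, 17 and 21, and at 391, 481, 182 and 169 CPM in wild-type mice 3, 8, 13 and 16. Its groups did not overlap, with a log2 difference of -2.79 ± 1.10 (SE) and an edgeR adjusted p of 0.520. In the limma-voom fit with the mouse as a random effect it was called, at -3.87 with an adjusted p of 0.000643.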
